A study of Mus musculus with 64 samples.

Results

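This account covers the net change in RNA over 4 h of restimulation in mouse CD4 T cells lacking Roquin-1, Roquin-2 and Regnase-1 together. It rests on 8 of the 64 libraries of the series, chosen by their group in the deposited time course: 4 triple-knockout libraries at 4 h and 4 triple-knockout libraries at 0 h. The other 56 libraries, which cover 4 genotypes at 0, 1, 2 and 4 h with 4 libraries in each of 16 groups, served to estimate the spread and to show where the triple-knockout response differed. CD4 T cells from the spleens of C57BL/6J mice carried Cd4-Cre-ERt2, a tamoxifen-inducible Cre driven by Cd4 regulatory elements, in all groups, the controls included. Floxed alleles made the genotypes: Rc3h1/2 fl/fl in the Roquin double knockout (DKO), Zc3h12a fl/fl in the Regnase-1 knockout (KO), both sets of floxed alleles in the triple knockout (TKO), and the Cre alone in the control (WT). Cells of every group had 4-OH-tamoxifen, then 40 h of anti-CD3/28 activation in Th1 medium and 2 days in medium with IL-2. The 0 h cells were then taken without restimulation and the 4 h cells after a renewed anti-CD3/28 stimulus. The baseline is therefore a culture of previously activated Th1 blasts, not naive cells. Nothing in the labels tells whether a group's 4 libraries are 4 animals, 4 cultures or less than that, so p-values measure the spread between libraries, which may be technical.

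Roquin-1 (Rc3h1) and Roquin-2 (Rc3h2) bind stem-loops in the 3′ untranslated regions of mRNAs and recruit deadenylases, and Regnase-1 (Zc3h12a) is an endonuclease that cuts many of the same mRNAs. Signals from the T cell receptor and CD28 run through calcium and NFAT, MAP kinases and AP-1, and NF-κB, and the protease MALT1 cleaves both Roquin and Regnase-1. Restimulated Th1 cells are known for a fast burst of cytokine and chemokine mRNA, followed by growth and a return of early factors towards the resting level.

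The 8 libraries held 6029673 to 8810953 reads in genes, within the range of 5369766 to 11664963 over all 64, and 16140 genes were tested. Values below are normalized reads, that is whole reads scaled to the median library of 7720320 reads, and fold changes are differences of mean log2(normalized reads + 1) ± SE with Benjamini-Hochberg adjusted p-values from limma, called under 0.05. Libraries are numbered by their place in the deposited lists, which only names them. Among the CD4 T cell markers 11 of 11 were measured, with a summed level of 1664 to 1924 CPM (reads scaled to a common library total) at 0 h and 1357 to 1545 at 4 h. Fewer cells of a type and less RNA per cell cannot be told apart in bulk RNA. B cell markers summed to 357 to 516 CPM at 0 h and 75.7 to 93.9 at 4 h, nearly all from Ighm (3369 ± 533 and 569 ± 82.3 normalized reads, SD, n = 4), and in WT cells the sum also went down, from 121 to 237 CPM to 19.3 to 33.3. Of all genes tested 27.2% rose and 23.1% fell, and the counts of called markers that follow are too small to be set apart from that. CD8 markers summed to 9.96 to 15.6 CPM at 0 h and 21.2 to 30.1 at 4 h (1 of 2 tested rose). Natural killer markers summed to 6.64 to 12.1 and 11.7 to 21.8 (1 of 3 rose). Myeloid markers summed to 65.1 to 72.6 and 59.3 to 71.3 (1 of 5 fell). Dendritic (2 of 5 rose), neutrophil and erythroid sums stayed at or below 25.8 CPM in all 8 libraries, and Lyz2, Ncr1 and S100a9 were at 0 reads at 4 h. The part of these cells in any result was not tested. Triple-knockout library 4 at 0 h and library 1 at 4 h stood apart from their groups, with mean correlations to the others of 0.944 (0.958 to 0.971 for the rest) and 0.968 (0.976 to 0.982). Without both, 4077 genes rose and 3495 fell.

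The levels of the targeted genes themselves did not move past the spread in the triple knockout. Rc3h1 stood at 79.1, 73.5, 69.2 and 59.2 CPM at 0 h and at 85.9, 75.4, 78.4 and 67.3 CPM at 4 h, and the ranges overlapped (exact two-sided permutation test p = 0.3143, adjusted 0.419 over 12 tests; the smallest p that 4 against 4 allows is 0.0286). In WT cells Rc3h1 went from 78.9 ± 10.5 to 151 ± 8.16 CPM (SD, n = 4; exact permutation p = 0.0286, adjusted 0.0857). Rc3h2 stood at 97.8 ± 13 and 100 ± 15.1 CPM in the triple knockout and Zc3h12a at 16.1 ± 4.72 and 15.8 ± 1.34 CPM (SD, n = 4 each; exact permutation p = 0.8286 and 0.9143). Set against WT, the Rc3h1 count was lower in the triple knockout at 4 h (exact permutation p = 0.0286, adjusted 0.0857), while at 0 h the ranges overlapped (exact permutation p = 0.2571). The Rc3h2 count was higher in the triple knockout than in WT, where it stood at 67.2 ± 5.61 at 0 h (all 4 triple-knockout libraries above all WT libraries; exact permutation p = 0.0286, adjusted 0.0857) and at 69.5 ± 12.2 at 4 h (exact permutation p = 0.0571). Zc3h12a stood at 10.3 ± 1.14 and 18 ± 3.18 CPM in WT, the 0 h level being below the triple-knockout mean (exact permutation p = 0.0571) and the 4 h level above it (exact permutation p = 0.2286). The counts of Rc3h2 and, at 0 h, of all 3 genes thus show no detectable loss of RNA in the libraries labelled triple knockout. These are whole-gene counts. Which exons were removed is not given in the sources used here, so the counts check the deletion in part at most.

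Within the triple knockout 4394 of 16140 genes (27.2%) rose and 3732 (23.1%) fell over 4 h, and the median change of all genes was 0.04 on the log2 scale. Scaling moved this split: with the deposited scaling, where the median was -0.16, 3310 rose and 4932 fell (40.2% of calls upward against 54.1%), and 3310 genes (20.5%) rose and 3717 (23%) fell under all 5 scalings tried. The 4 libraries at 4 h all lay above the 4 at 0 h for 4041 genes (25%) and all below for 3337 (20.7%). Changes past 8-fold (3 on the log2 scale) numbered 145 upward (0.898%) and 138 downward (0.855%).

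The largest rises were in secreted proteins of the inflammatory T cell response. Ccl4, an inflammatory chemokine, counted 0.858, 1.22, 3.85 and 4.35 normalized reads in the libraries at 0 h and 2449, 1694, 2284 and 1193 at 4 h. Its neighbour Ccl3 (chr11:83647844-83649355, minus strand, GRCm38) counted 4.29, 8.55, 3.85 and 14.1 at 0 h and 2622, 3287, 4817 and 2431 at 4 h. All 4 h libraries lay far above all 0 h libraries for both, with log2 changes of 9.16 ± 0.46 for Ccl4 (chr11:83662584-83664683, plus strand; adjusted p = 1.2e-22) and 8.67 ± 0.46 for Ccl3 (adjusted p = 1.4e-21). Xcl1, the chemokine that attracts cross-presenting dendritic cells, went from a mean of 2.76 to 930 ± 295 normalized reads (7.97 ± 0.48, adjusted p = 9.7e-20), and Ccl1, a ligand of CCR8, from 3.08 ± 2.05 to 675 ± 320. Of 9 tested chemokines 7 rose and none fell (median 3.51 log2, against 0.04 for all genes), the count being the same under all 5 scalings. Ccl22 and Cxcl10 did not pass, at 1.13 and -0.50 log2.

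Il2, the T cell growth factor (chr3:37120523-37125959, minus strand), counted 7.72, 3.66, 4.81 and 17.4 normalized reads at 0 h and 5514, 1848, 2875 and 1886 at 4 h, a change of 8.39 ± 0.51 (adjusted p = 2.5e-19). Ifng, the signature cytokine of Th1 cells (chr10:118441046-118445892, plus strand), counted 114, 172, 135 and 35.9 at 0 h and 6837, 10425, 18725 and 8392 at 4 h, or 6.69 ± 0.57 (adjusted p = 2.2e-14). The groups were far apart for both genes, and Ifng varied more between libraries at each time than Ccl4 did at 4 h. Il3 and Csf2, hematopoietic growth factors encoded next to each other (chr11:54265303-54267277 and chr11:54247271-54249667, both minus strand), rose by 8.28 ± 0.5 and 5.85 ± 0.58. Csf2 counted 2.57, 2.44, 2.89 and 6.52 at 0 h and 366, 208, 402 and 127 at 4 h, so that the lowest 4 h library still lay well above all 0 h libraries.

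Of 24 tested cytokines 15 rose and 4 fell (14 and 4 under all 5 scalings; median 2.32). Cytokines that belong to other helper lineages rose as well in these Th1 cultures. Il13, a Th2 cytokine, went from 19.4 ± 7.63 to 467 ± 121 normalized reads (4.55 ± 0.38, adjusted p = 7.6e-15), and Il4 from 8.61 ± 5.25 to 73.3 ± 18.4 (3.09 ± 0.5, adjusted p = 4.9e-07). Il17f, a Th17 cytokine, had 3 reads over the 4 libraries at 0 h and 562 at 4 h (adjusted p = 7.7e-14), a ratio of 171 in CPM (95% exact interval for counting error 58.1 to 830). Il21, the follicular helper cytokine, rose by 4.38 and Il10, an anti-inflammatory cytokine, by 2.19. The 4 that fell were Il16 (-2.77), Lta (-1.88), Ltb (-1.75) and Osm (-1.63), of which Lta and Ltb encode lymphotoxins. Gzmb, a granule protease, stood at 1219 ± 413 and 2083 ± 807 and did not pass (adjusted p = 0.12).

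**Figure D1:**
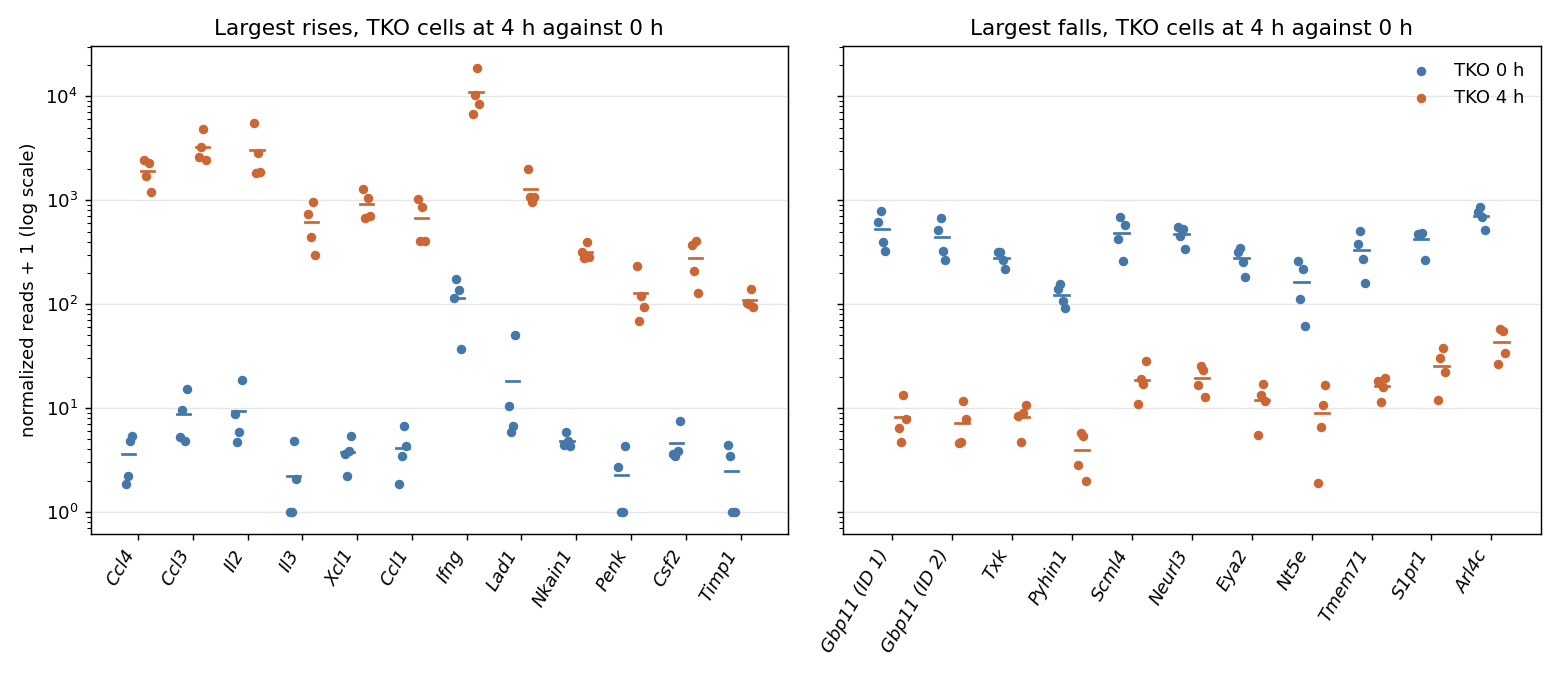
The 12 genes with the largest rise (left) and 11 gene IDs among those with the largest fall (right) from 0 to 4 h in the triple knockout. Each point is 1 library, in normalized reads + 1 on a log axis, with 4 libraries per time and bars at the means. Before adding 1, Ccl4 goes from a mean of 2.57 to 1905 and S1pr1 from 419 to 24.6. The groups at 0 and 4 h are separate for the genes shown, as their choice required.

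Further genes among the largest changes have other or less known roles in T cells. Lad1, an anchoring filament protein, counted 9.43, 4.88, 5.77 and 48.9 normalized reads at 0 h and 2004, 1083, 955 and 1071 at 4 h (6.67), with library 4 high at 0 h and library 1 high at 4 h. Nkain1 (3.86 to 317; 6.03), Penk, the precursor of enkephalins (1.24 to 128; 5.97), and Timp1, a metalloproteinase inhibitor that overlaps Syn1 on the other strand (1.47 to 109; 5.78), also rose. Among falls, Txk, a TEC-family kinase of T cell receptor signalling, counted 316, 317, 264 and 219 at 0 h and 7.29, 3.74, 7.94 and 9.71 at 4 h (-5.14). Pyhin1, an interferon-inducible protein of the nucleus (-5.06), Scml4 (-4.69), Neurl3 (-4.62), Eya2 (-4.61), Nt5e, the ecto-nucleotidase CD73 (-4.35), Tmem71 (-4.25) and Arl4c, a small GTPase (-4.07), fell as well. The groups at 0 and 4 h were separate for all of these, as the choice of the genes required.

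Membrane-bound ligands of the TNF family moved the same way: 6 of 10 rose and 1 fell (5 and 1 under all 5 scalings). Tnfsf11, which encodes RANKL, counted 229, 184, 171 and 113 normalized reads at 0 h and 2214, 1723, 2935 and 1727 at 4 h (3.62 ± 0.33, adjusted p = 1.8e-13). Cd70, the ligand of CD27, went from 7.48 ± 3.33 to 197 ± 96.6 (4.53 ± 0.48, adjusted p = 7.5e-12). Tnfsf13b, which encodes the B cell survival factor BAFF, fell from 50.6, 47.6, 41.4 and 5.44 to 1.82, 3.74, 1.77 and 1.94 (-3.15 ± 0.44, adjusted p = 1.8e-08). Library 4 was the low one at 0 h, yet it too lay above the 4 h libraries.

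Receptors that receive cytokine signals went down. Of 21 tested cytokine receptors 13 fell and 1 rose, and 13 fell and none rose under all 5 scalings. Il7r, the receptor for the survival cytokine IL-7, fell from a mean of 1411 to 290 normalized reads (-2.24), and Il10ra from 450 ± 233 to 46.2 ± 25.3 (-3.32 ± 0.44, adjusted p = 8e-09). Il12rb2, the Th1-defining chain of the IL-12 receptor, counted 2036, 3300, 1810 and 825 at 0 h and 274, 657, 991 and 580 at 4 h (-1.65 ± 0.39, adjusted p = 0.00031), and library 3 at 4 h overlapped library 4 at 0 h; an opposite-strand neighbour, Serbp1, holds 275% as many reads and whether counting used strand is not given in the sources used here. Il2ra, the high-affinity IL-2 receptor chain, did not pass, at 12757 and 10691 normalized reads (-0.25).

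Receptors for migration fell in 7 of 15 genes and rose in 1, Ccr8, where 23.1% of all genes fell and 27.2% rose. S1pr1, which carries lymphocytes out of lymphoid tissue, counted 473, 459, 480 and 263 normalized reads at 0 h and 10.9, 29, 37.1 and 21.4 at 4 h (-4.12 ± 0.41, adjusted p = 1.5e-12). Ccr7, the lymph node homing receptor, went from 1391 ± 163 to 337 ± 36.3 (-2.04 ± 0.25, adjusted p = 6.5e-10) and Cxcr3, the Th1 homing receptor, from 299 ± 33.8 to 115 ± 39.6 (-1.42 ± 0.24, adjusted p = 1.2e-06). No 4 h library reached a 0 h library for these 3 genes.

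Inhibitory receptors rose in 7 of 11 genes and fell in 2, the same under all 5 scalings. Pdcd1, which encodes PD-1, counted 31.7, 37.8, 25 and 22.8 normalized reads at 0 h and 558, 477, 599 and 526 at 4 h, a change of 4.18 ± 0.25 (adjusted p = 9.4e-21) with narrow, separate groups. Cd200 rose by 4.07, Havcr2 (TIM-3) by 3.19, Lag3 by 2.9 ± 0.69 and Tigit by 2.86 ± 0.66. Lag3 differed widely within a group: it counted 67.7, 72, 65.4 and 4.35 at 0 h and 123, 296, 423 and 352 at 4 h. Ctla4 fell instead, from 2605, 4100, 2361 and 2602 to 1049, 1319, 1439 and 1193 (-1.2 ± 0.42, adjusted p = 0.015), a call lost under 1 of 19 alternative settings, and Entpd1, the ectonucleotidase CD39, fell by 0.77 on the log2 scale. Of 11 costimulatory TNF receptors 3 rose and 5 fell, where 27.2% of all genes rose and 23.1% fell. Tnfrsf4 (OX40), Tnfrsf9 (4-1BB) and Tnfrsf25 (DR3) rose, by 1.35 ± 0.3, 1.5 ± 0.42 and 0.81. The Tnfrsf9 call was lost under 2 alternatives, and an opposite-strand gene there, Camta1, holds 54.8% as many reads.

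Genes of the NF-κB pathway rose in 13 of 20 cases and fell in 4 (12 and 4 under all 5 scalings; median 0.95). The members with the largest rise were inhibitors of the pathway. Tnfaip3, which encodes the deubiquitinase A20, counted 148, 189, 135 and 163 normalized reads at 0 h and 2686, 2162, 2986 and 2049 at 4 h (3.95 ± 0.29, adjusted p = 8.4e-17). Nfkbid, a nuclear IκB protein, counted 489, 302, 632 and 519 at 0 h and 5472, 4505, 3992 and 4180 at 4 h (3.26 ± 0.28, adjusted p = 1.3e-14). The subunit genes Nfkb2, Relb, Rel, Nfkb1 and Rela rose by 2.83, 2.22, 2.2, 1.66 and 0.93. Upstream, Malt1, the protease that cleaves Roquin and Regnase-1, fell by 0.98 on the log2 scale and counted 1733, 1511, 1730 and 1209 at 0 h and 806, 888, 686 and 737 at 4 h (adjusted p = 0.00013).

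The promoters of Tnfaip3 and Nfkbid are shown because a κB motif stands in both, as the members of the list with that motif and the largest rise. They are the 250 bases before the start site in RefSeq GRCm38.p6, chr10:19015411-19015660 on the minus strand and chr7:30422156-30422405 on the plus strand, with each match to the κB motif, searched on both strands, in capitals.
Tnfaip3: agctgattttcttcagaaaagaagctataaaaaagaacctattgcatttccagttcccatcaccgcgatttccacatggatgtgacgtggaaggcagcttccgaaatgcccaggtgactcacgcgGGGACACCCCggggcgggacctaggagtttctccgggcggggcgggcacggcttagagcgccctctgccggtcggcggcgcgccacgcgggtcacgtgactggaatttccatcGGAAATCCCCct
Nfkbid: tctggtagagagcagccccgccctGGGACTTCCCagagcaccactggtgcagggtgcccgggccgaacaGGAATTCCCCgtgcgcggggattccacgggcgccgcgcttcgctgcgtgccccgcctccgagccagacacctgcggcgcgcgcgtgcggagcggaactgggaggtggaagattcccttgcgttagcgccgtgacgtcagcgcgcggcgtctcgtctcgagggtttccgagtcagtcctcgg
Each holds 2 matches. Of 19 RefSeq promoters of the list, from 14 of its 20 genes, 10 held the motif (52.6%), against 7.25% of all 32817 promoters of that length. A match describes the letters and is no evidence of binding.

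Growth genes rose together. All 27 tested ribosome biogenesis genes rose, under all 5 scalings, with a median of 1.92. Ncl, which encodes nucleolin, counted 4855, 4253, 6819 and 6554 normalized reads at 0 h and 18997, 19927, 21576 and 20312 at 4 h (1.87 ± 0.12, adjusted p = 2.2e-19). The 4 h libraries lay close together for Ncl and for Nop56, a small nucleolar RNP protein (579 ± 233 to 2666 ± 37.2, 2.3 ± 0.18), while the 0 h libraries were spread. Myc, the factor that drives many of these genes, counted 1206, 1936, 1480 and 850 at 0 h and 4339, 5433, 6362 and 5249 at 4 h (2.02 ± 0.18, adjusted p = 3e-14), and the MAX partners Mxd4, Mxd1 and Mxd3, which oppose it, fell by 3.64, 2.91 and 2.3 on the log2 scale. At Mxd3 an opposite-strand gene, Prelid1, holds 2510% as many reads. The E-box CACGTG, the motif of the MYC family, stood in 1 of 24 ribosome biogenesis promoters (4.17%) and in 6.02% of all promoters.

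All 19 polyamine and nucleotide synthesis genes rose as well, 17 of them under all 5 scalings (median 1.44). Srm, spermidine synthase, counted 185, 100, 267 and 390 normalized reads at 0 h and 1856, 1842, 2110 and 2003 at 4 h (3.21 ± 0.25, adjusted p = 4.4e-16), Odc1, the first enzyme of that pathway, rose by 1.44 ± 0.19, and Ctps and Cad, enzymes of pyrimidine synthesis, rose by 2.27 and 2. Of 16 chaperones 14 rose (12 under all 5 scalings), among them Hspd1, the mitochondrial HSP60, at 575, 383, 651 and 1131 before and 3294, 3156, 3227 and 3180 after (2.34). Aminoacyl-tRNA synthetases rose in 14 of 20 genes, also under all 5 scalings, and amino acid transporters in 8 of 12 with 1 fallen; Slc7a5, the large neutral amino acid carrier, rose from 593 ± 74.9 to 1550 ± 146 (1.39 ± 0.15). Ribosomal protein genes moved less: 13 of 26 rose, 8 under all 5 scalings, with a median of 0.45.

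Glycolysis genes went the other way. Of 20 glycolysis genes 9 fell and 2 rose under all 5 scalings. Tpi1, Hk1 and Slc16a3, the last a lactate exporter, fell by 1.57, 1.56 and 2.87 on the log2 scale. Slc16a1, another monocarboxylate carrier, rose from 333 ± 86.9 to 1310 ± 93.5 (2 ± 0.17, adjusted p = 1.2e-14). The genes of the hypoxia list fell in 8 of 14 cases and none rose. Bnip3, a mitophagy receptor, counted 682, 1008, 590 and 110 at 0 h and 34.6, 67.4, 78.5 and 58.3 at 4 h (-2.99 ± 0.56, adjusted p = 1.3e-05), with library 4 the low one at 0 h but still above the 4 h libraries. Library 4 at 0 h was also the lowest for Slc16a3, at 110 against 386 to 680. Without library 4 at 0 h and library 1 at 4 h, 13 glycolysis genes fell. Of 17 genes of the tricarboxylic acid cycle 9 rose and none fell, where 27.2% of all genes rose and 23.1% fell. With the deposited scaling 5 rose and 3 fell.

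Genes of resting and naive T cells fell. Of 27 such genes 20 fell and 3 rose, 20 and 2 of them under all 5 scalings. Klf2, the quiescence factor that drives S1pr1, counted 77.2, 34.2, 80.8 and 59.8 normalized reads at 0 h and 3.64, 4.68, 4.41 and 1.94 at 4 h (-3.75). Cdkn1b, the cyclin-dependent kinase inhibitor p27, went from 394 ± 87.4 to 60.7 ± 12.9 (-2.68 ± 0.28, adjusted p = 9.2e-12), and Foxo1, a factor of the naive state, from 2220 ± 367 to 763 ± 46.8 (-1.53 ± 0.15, adjusted p = 1.1e-12). The 3 that rose were Slfn2, Bach2 and Foxp1, of which Slfn2, needed for T cell quiescence, rose most, from 277, 314, 290 and 383 to 2868, 2689, 3046 and 2484 (3.14 ± 0.13, adjusted p = 5.8e-27). The GTPases of the GIMAP family fell in 6 of 8 genes. Within the BCL2 family 5 rose and 5 fell of 15 (4 and 5 under all 5 scalings), where 27.2% of all genes rose and 23.1% fell. Bcl2 itself counted 8007, 8408, 5943 and 5578 at 0 h and 1551, 1923, 1807 and 1881 at 4 h (-1.95 ± 0.16, adjusted p = 1.1e-15), while Bcl2a1b, another survival member with near-identical copies that counting could split, went from 21 ± 2.5 to 548 ± 203 (4.58 ± 0.27).

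Interferon-stimulated genes fell in 17 of 24 cases and rose in 1, under all 5 scalings (median -1.61), although Ifng rose in the same libraries. Ddx58, the RNA sensor RIG-I, counted 266, 288, 201 and 248 normalized reads at 0 h and 14.6, 14, 12.4 and 15.5 at 4 h (-4.05 ± 0.24, adjusted p = 1.2e-20), tight groups far apart. Its relative Ifih1, the sensor MDA5, was the 1 member that rose, from 196, 166, 154 and 127 to 430, 290, 390 and 327 (1.16 ± 0.3, adjusted p = 0.0011). Irf7 fell by 3.27 on the log2 scale, but an opposite-strand gene, Phrf1, holds 3690% as many reads. Gbp11, a guanylate-binding protein locus counted under 2 gene IDs, had the largest fall of all, from 619, 782, 395 and 326 to 5.47, 3.74, 12.4 and 6.8 for the first (-6.06 ± 0.31, adjusted p = 1e-23) and by 5.96 on the log2 scale for the second; reads shared between near-identical Gbp copies make the split between them uncertain.

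The promoters of Oas3, an antiviral oligoadenylate synthetase, and of Stat2 are shown as the 2 fallen members with the interferon element and the largest fall. Oas3 counted 101, 155, 95.2 and 144 at 0 h and 31, 21.5, 16.8 and 21.4 at 4 h (-2.4 ± 0.28, adjusted p = 1.4e-10), and Stat2 296, 260, 275 and 250 against 61.9, 72.1, 54.7 and 69.9 (-2.05 ± 0.17, adjusted p = 3.3e-15). The windows are chr5:120777660-120777909 on the minus strand and chr10:128270248-128270497 on the plus strand (RefSeq GRCm38.p6), with each match to the interferon element (GAAA, then NN, then GAAA), on either strand, in capitals.
Oas3: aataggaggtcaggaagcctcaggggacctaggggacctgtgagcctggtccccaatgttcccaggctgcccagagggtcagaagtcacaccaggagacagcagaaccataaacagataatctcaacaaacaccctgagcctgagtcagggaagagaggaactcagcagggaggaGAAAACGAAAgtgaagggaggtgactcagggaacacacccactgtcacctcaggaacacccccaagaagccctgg
Stat2: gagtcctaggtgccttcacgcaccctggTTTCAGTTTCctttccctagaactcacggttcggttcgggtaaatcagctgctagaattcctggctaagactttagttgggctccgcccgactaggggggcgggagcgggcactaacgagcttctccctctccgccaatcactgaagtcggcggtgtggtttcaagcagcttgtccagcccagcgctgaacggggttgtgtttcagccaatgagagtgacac
The element stood in 11 of 25 promoters of the list (44.0%), from 19 of its 24 genes, and in 2.97% of all promoters of that length.

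**Figure D2:**
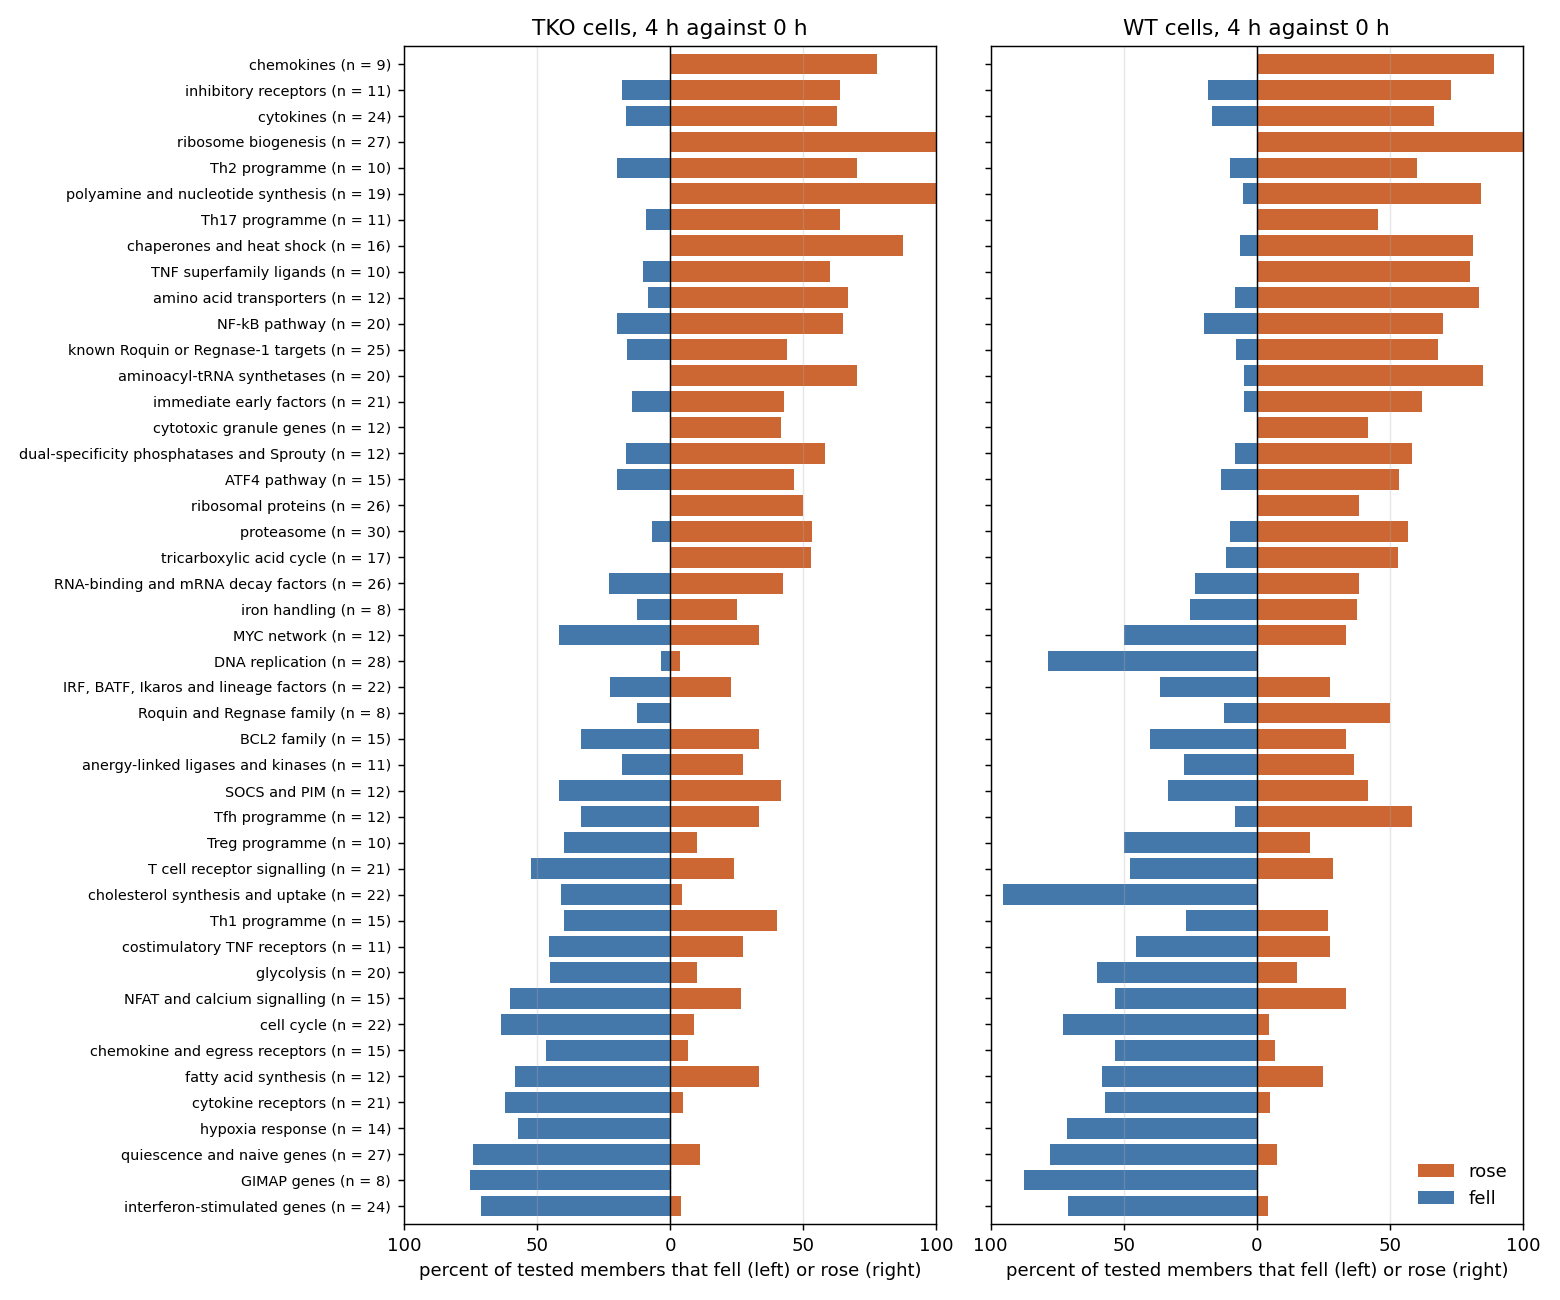
Percent of the tested members of each of 45 gene lists that fell (left of 0) or rose (right of 0) from 0 to 4 h, in the triple knockout and in WT cells, by adjusted p under 0.05. In the triple knockout all of the 27 ribosome biogenesis genes rose, 17 of 24 interferon-stimulated genes fell, and DNA replication had 1 gene called in each direction of 28.

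Mitotic genes fell, and few DNA replication genes passed the test in either direction. Of 22 cell cycle genes 14 fell and 2 rose, 14 and 1 of them under all 5 scalings. Mki67, the proliferation marker, counted 6925, 7385, 8480 and 7746 normalized reads at 0 h and 2863, 3094, 2783 and 2825 at 4 h (-1.4 ± 0.11, adjusted p = 3.5e-16). Of 28 DNA replication genes Mcm10, a helicase loading factor, was the 1 that rose (0.66, adjusted p = 0.0025) and Rrm2, a ribonucleotide reductase subunit, the 1 that fell (-0.65, adjusted p = 0.018). Both were called under all 5 scalings, but the number fallen was 6 with the deposited, 3 with the median-of-ratios and 4 with the upper-quartile scaling. Without both outlying libraries 3 rose and none fell, and Rrm2 was not called under 4 alternatives.

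The replication genes differed between the triple knockout and WT cells, but not detectably between the triple knockout and the other knockouts. In WT cells 22 of the 28 fell (24.7% of all genes rose and 27.1% fell in WT), with a median of -0.73 against 0.13 in the triple knockout. The change in the triple knockout minus that in WT, tested as an interaction, was higher for 13 of the 28 and lower for none, against 4.78% higher and 1.86% lower of all genes. With the deposited, upper-quartile and CPM scalings the count was 4, 7 and 6, and 4 genes passed under all 5. In the Roquin double knockout 8 of the 28 fell (26.9% of all genes; median -0.22) and in the Regnase-1 knockout 6 (27.6% of all genes; median -0.12). The triple-knockout change minus that in either of them was called by limma for 0 of the 28, also with voom on whole reads, with 4 and 1 higher at an unadjusted p under 0.05 and medians of 0.32 and 0.21. Cdc6, which loads the replicative helicase, counted 156, 121, 222 and 252 at 0 h and 211, 248, 194 and 250 at 4 h in the triple knockout, overlapping ranges with a change of 0.31 ± 0.24 (adjusted p = 0.3), while in WT cells the mean went from 276 to 118 (-1.18). The interaction was 1.49 ± 0.35 (adjusted p = 0.0033), under all 5 scalings. Tk1, thymidine kinase, likewise stood at 143 and 149 in the triple knockout and at 267 and 79.1 in WT (interaction 1.81, adjusted p = 0.003, under all 5 scalings), but its opposite-strand gene holds 138% as many reads. Mcm7, a subunit of the helicase, counted 765, 668, 920 and 874 and then 565, 744, 727 and 774 in the triple knockout (-0.2 ± 0.17, adjusted p = 0.36) and had an interaction of 0.97 ± 0.24 (adjusted p = 0.0066) that was not called under all 5 scalings, and Cops6 on the other strand holds 54.9% as many reads.

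The promoters of Cdc6 and Mcm7 are the 2 of the list with the E2F letters TTTNNCGC and the largest called interaction. They are chr11:98907901-98908150 on the plus strand and chr5:138171884-138172133 on the minus strand (RefSeq GRCm38.p6), with each match on either strand in capitals.
Cdc6: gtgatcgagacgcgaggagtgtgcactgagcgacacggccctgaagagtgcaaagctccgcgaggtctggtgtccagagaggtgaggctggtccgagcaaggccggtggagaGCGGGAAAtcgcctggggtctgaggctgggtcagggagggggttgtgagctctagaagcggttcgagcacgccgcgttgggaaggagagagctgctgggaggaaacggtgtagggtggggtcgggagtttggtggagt
Mcm7: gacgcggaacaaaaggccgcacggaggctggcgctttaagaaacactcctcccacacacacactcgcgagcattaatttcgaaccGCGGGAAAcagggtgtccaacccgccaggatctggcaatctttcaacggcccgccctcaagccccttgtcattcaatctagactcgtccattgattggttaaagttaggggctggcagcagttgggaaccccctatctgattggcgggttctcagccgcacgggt
The letters stood in 7 of 22 promoters of the list (31.8%), from 21 of its 28 genes, and in 4.28% of all promoters of that length.

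Genes of cholesterol synthesis and uptake fell in 9 of 22 cases in the triple knockout and in 21 of 22 in WT. Of all genes 23.1% and 27.1% fell. In the Roquin double knockout 13 fell (26.9% of all genes), with a median of -0.56 against -0.51 in the triple knockout. In the Regnase-1 knockout 14 fell (27.6% of all genes), with a median of -0.78. The triple-knockout change minus that in either was called for 0 of 22 by limma, on log2 values or with voom, and for 0 at an unadjusted p under 0.05. Against WT the interaction was higher for 5 and lower for none (4.78% and 1.86% of all genes), 2 of them under all 5 scalings. Those 2 were Mvd, mevalonate diphosphate decarboxylase, which counted 143, 120, 129 and 176 at 0 h and 62.9, 47.7, 30.9 and 27.2 at 4 h (-1.79 against -3.34 in WT; interaction 1.55, adjusted p = 0.0089), and Dhcr7, the last step to cholesterol (-0.75 against -2.21; interaction 1.46, adjusted p = 0.0019). An opposite-strand gene at Mvd, Gm20388, holds 6750% as many reads. Idi1, isopentenyl diphosphate isomerase, was the only member that rose, from 141, 96.4, 139 and 247 to 579, 311, 227 and 319 (1.2 ± 0.3, adjusted p = 0.00076), and library 4 at 0 h overlapped library 3 at 4 h. With the deposited and the upper-quartile scaling 16 members fell in the triple knockout.

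**Figure D3:**
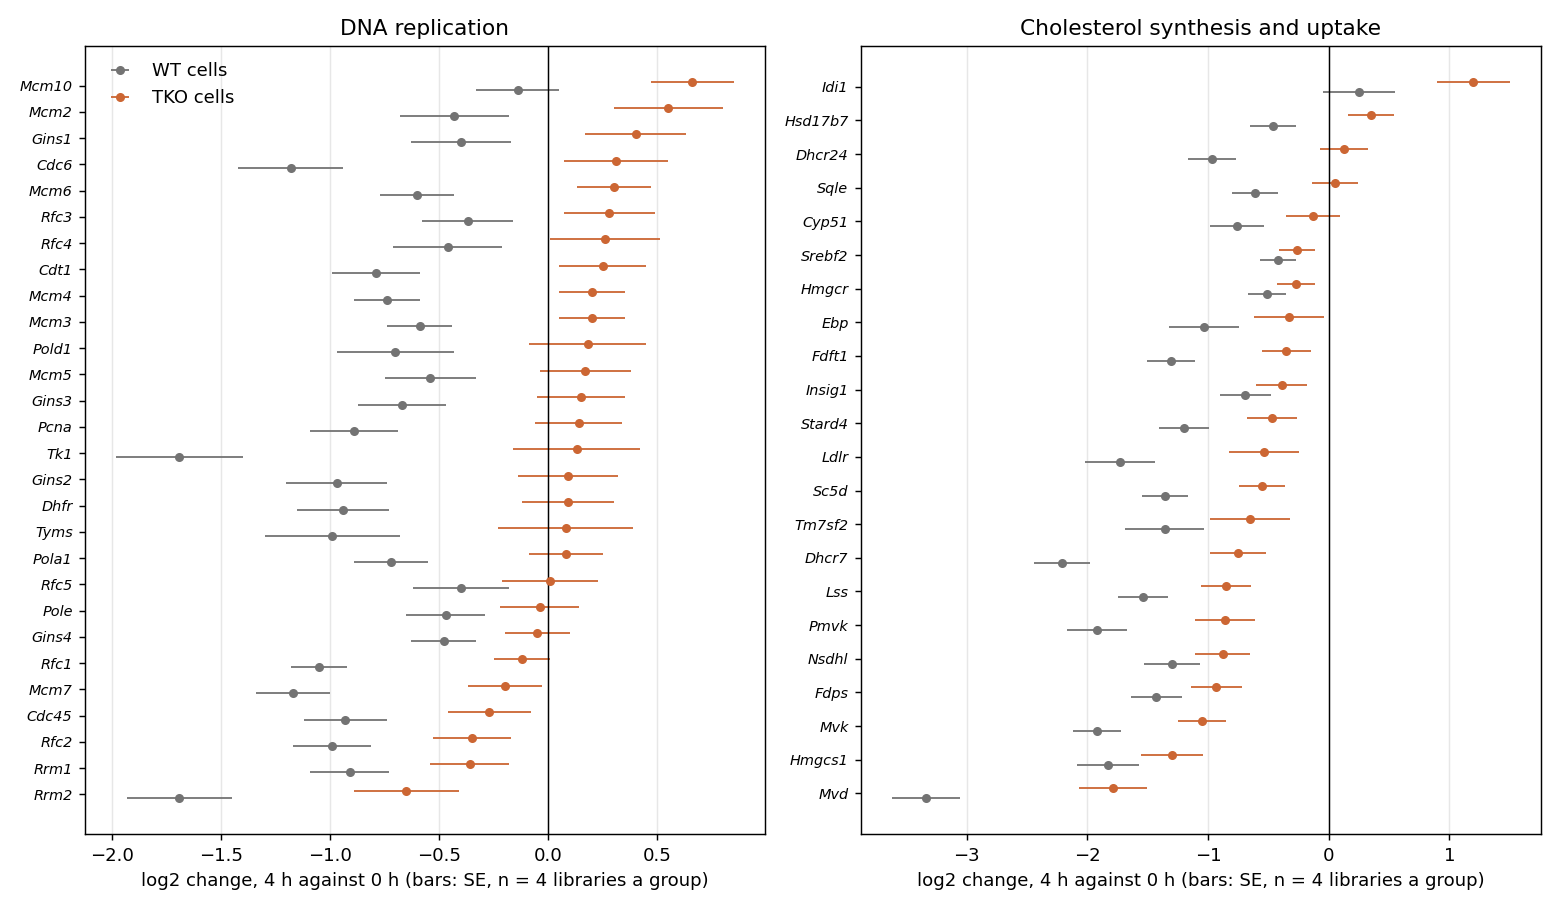
Log2 change from 0 to 4 h ± SE for the DNA replication genes and the cholesterol genes, WT in grey and the triple knockout in orange. The replication genes lie around 0 in the triple knockout (median 0.13) and below it in WT (median -0.73), and the cholesterol medians are -0.51 and -1.31.

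Over all genes the triple-knockout change was higher than the WT change for 771 genes and lower for 300, but this split depends on scaling: with the deposited scaling it was 253 higher and 1196 lower (17.5% of calls higher against 72% in the values given), with median-of-ratios 574 and 388, with upper-quartile 475 and 521, and with CPM 480 and 378. Under all 5 scalings 253 were higher (1.57%) and 287 lower (1.78%), and the genes given with a difference from WT from here on are among them unless stated. P2ry1, a receptor for ADP, counted 4.29, 3.66, 4.81 and 5.44 normalized reads at 0 h and 196, 131, 104 and 212 at 4 h (4.82 ± 0.38, adjusted p = 4.2e-16), with no overlap. In WT it stood at 30.9 and 53.7 (0.83, adjusted p = 0.065), and the interaction was 3.99 (adjusted p = 7.2e-07). Calcrl, the receptor for CGRP and adrenomedullin, rose from 212, 178, 180 and 204 to 865, 1401, 2147 and 1489 (2.86 ± 0.37) where WT had 104 ± 21.9 and 110 ± 41 (0.03); the interaction was 2.82 ± 0.52 (adjusted p = 0.00024). Tmcc3 went up in the triple knockout, from 144, 114, 130 and 130 to 252, 193, 233 and 236 (0.81 ± 0.23, adjusted p = 0.0025), and down by 1.69, 1.24 and 0.98 on the log2 scale in WT, the Roquin double knockout and the Regnase-1 knockout.

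Among transcription factors Gata3, the master factor of Th2 cells, stood out on the same side. It counted 254, 398, 244 and 235 normalized reads at 0 h and 1202, 1101, 1646 and 1393 at 4 h in the triple knockout (2.25 ± 0.23, adjusted p = 4.1e-12), while the WT change was 0.2 (adjusted p = 0.54). The interaction was 2.06 (adjusted p = 2.1e-05). Bcl2 also fell less than in WT, where it went from 7863 to 567 (-3.79; interaction 1.84, adjusted p = 6.6e-08), and Ifngr1, the interferon-γ receptor chain, fell by 2.17 ± 0.16 against 3.73 ± 0.16 on the log2 scale (interaction 1.56 ± 0.22, adjusted p = 1.6e-06).

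Several genes rose less than in WT from a higher level at 0 h. Pdzk1ip1 counted 502, 310, 543 and 506 normalized reads in the triple knockout at 0 h and 975, 1186, 1256 and 1137 at 4 h (1.32), against means of 0.708 and 95.2 in WT (interaction -4.46, adjusted p = 1.3e-07). The WT 0 h libraries held 3 Pdzk1ip1 reads in all (423 at 4 h, a ratio of 127 in CPM with a 95% exact counting interval of 43.3 to 621), so the size of that interaction depends on the 1 read added before taking logs. Pou2f2, which encodes the octamer factor Oct-2, stood at 471 ± 51.2 and 1027 ± 189 against 67.6 ± 15.1 and 1500 ± 271 in WT (interaction -3.35 ± 0.28, adjusted p = 7.9e-13). Zbtb32, a repressor of cytokine genes, counted 411, 494, 446 and 37 at 0 h and 1182, 1382, 1389 and 1207 at 4 h (2.41 ± 0.51), against 9.67 ± 3.87 and 930 ± 108 in WT (interaction -4.09 ± 0.72, adjusted p = 0.00013); its library 4 at 0 h was far below the other 3. For Csf2 the 0 h means were 3.61 in the triple knockout and 3.02 in WT, and the 4 h mean was 276 against 1997 (interaction -3.16, adjusted p = 0.011, not called with voom on whole reads). Il3 and Xcl1 had interactions of -2.99 (adjusted p = 0.0044) and -2.62 (adjusted p = 0.0097), while those of Il2 (-0.87) and Ifng (-1.88) did not pass. TNF ligands had 5 of 10 members lower and none higher, against 1.86% lower and 4.78% higher of all genes. With voom on whole reads 2 were lower, and with only the groups compared 3. Tnfsf14 (LIGHT) led, at 127, 144, 97.2 and 110 at 0 h and 739, 518, 725 and 444 at 4 h. Its change was 2.32 against 6.37 in WT (interaction in limma -4.05, adjusted p = 2e-11).

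Il9r and some follicular helper genes went down relative to WT. Il9r, the IL-9 receptor, counted 68.6, 56.2, 55.8 and 171 at 0 h and 6.38, 1.87, 4.41 and 7.77 at 4 h (-3.81 ± 0.52, adjusted p = 8.6e-09), against a WT change of 0.07 (interaction -3.88, adjusted p = 0.00028). Tox2, a factor of follicular helper cells, counted 719, 375, 454 and 377 at 0 h and 41.9, 108, 92.7 and 117 at 4 h (-2.45 ± 0.51, adjusted p = 5.2e-05; interaction -2.84, adjusted p = 0.0084). Bcl6, the master factor of those cells, stood at 186 and 174 in the triple knockout and changed by 1.94 in WT (interaction -2.08, adjusted p = 0.017). Of 12 genes of the follicular helper list 4 rose and 4 fell in the triple knockout (27.2% and 23.1% of all genes) and 7 rose and 1 fell in WT (24.7% and 27.1%). The interaction was lower for 4, under all 5 scalings. It was lower for 3 with voom on whole reads, and for 3 with 1 higher with only the groups compared.

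**Figure D4:**
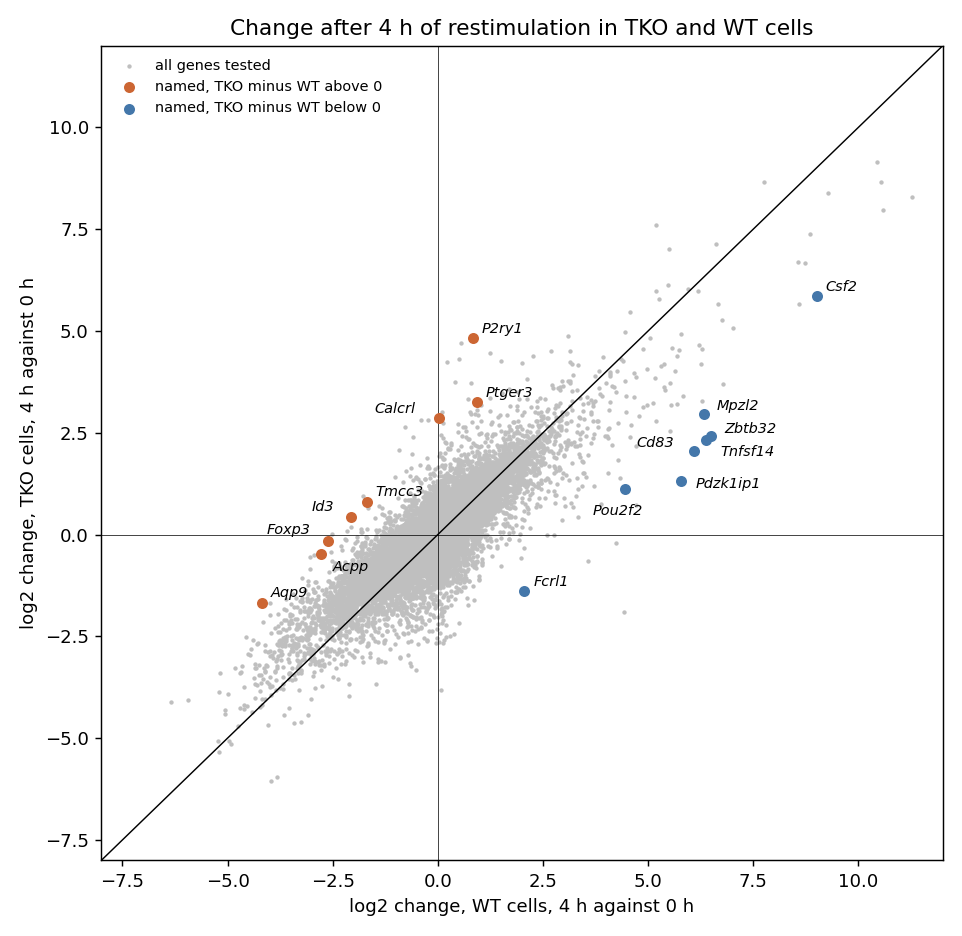
Log2 change from 0 to 4 h in the triple knockout (vertical) against WT cells (horizontal), 1 point per tested gene, with the genes of the largest called difference named. P2ry1 and Calcrl lie above the diagonal (differences of 3.99 and 2.82), Pdzk1ip1, Zbtb32 and Tnfsf14 below it (-4.46, -4.09 and -4.05).

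More of the known targets of Roquin or Regnase-1 rose than fell, and some rose less than in WT. Of 25 tested, 11 rose and 4 fell in the triple knockout (median 0.94), where 27.2% of all genes rose and 23.1% fell. Under all 5 scalings 10 rose and 4 fell, and 7 fell with the deposited scaling. In WT 17 rose and 2 fell (24.7% and 27.1% of all genes), with a median of 1.65. The interaction was lower for 7 and higher for none, against 1.86% and 4.78% of all genes. The 7 were lower under all 5 scalings, but 5 were lower with voom on whole reads and 6 with only the groups compared. The 7 of the main fit were Csf2, Tnfrsf4, Furin, Trib1, Irf4, Rel and Rc3h1. Rc3h1 is itself a floxed gene of the triple knockout, so its difference cannot be told apart from its own deletion. The Csf2 difference was not called with voom on whole reads. Tnfrsf4 counted 1972, 3034, 2297 and 607 at 0 h and 4407, 4398, 4507 and 4057 at 4 h (1.35 ± 0.3, adjusted p = 0.00013; interaction -1.76, adjusted p = 0.0049). Irf4, a factor of effector differentiation, counted 1659, 1873, 1686 and 909 and then 3271, 3699, 4308 and 3621 (1.33; interaction -1.22, adjusted p = 0.0052), and Rel 565, 522, 450 and 469 and then 2210, 2133, 2571 and 2327 (2.2 ± 0.17; interaction -0.88, adjusted p = 0.018). The 4 h libraries lay above the 0 h libraries for all 3.

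Icos, a costimulatory receptor and a classic target of Roquin-1, fell. It counted 10633, 12152, 10308 and 6584 normalized reads at 0 h and 1682, 4396, 4494 and 4204 at 4 h (-1.49 ± 0.4, adjusted p = 0.0013), with no overlap, and the lowest value of each group was in the library that stood apart. In WT Icos was at 700 and 630 (-0.15, adjusted p = 0.82), and the difference in change did not pass (-1.34, adjusted p = 0.16). Furin, a protease, counted 5667, 4904, 6008 and 2142 and then 6621, 8815, 9762 and 7566 (0.9 ± 0.29, adjusted p = 0.008), a call lost under 3 alternatives. Malt1 fell where WT did not pass (0.35, adjusted p = 0.19; interaction -1.33, adjusted p = 0.0034). It also fell in the Roquin double knockout (-0.94, adjusted p = 0.00019; the triple-knockout change minus this -0.04, adjusted p = 1), and in the Regnase-1 knockout it did not pass (0.45, adjusted p = 0.066; difference -1.43, adjusted p = 0.0073). Of 8 Roquin and Regnase family members, the 3 targeted genes included, only Khnyn was called, at -1.14. Zc3h12c, which encodes Regnase-3, did not pass in the triple knockout (0.77, adjusted p = 0.17) and changed by 3.17 in WT (interaction -2.4, adjusted p = 0.014).

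The triple-knockout change was also set against that of the Roquin double knockout and of the Regnase-1 knockout. These contrasts share the 8 triple-knockout libraries with the WT contrast and are given side by side. Against the Roquin double knockout 54 genes were higher (0.335%) and 41 lower (0.254%), 0.589% in all, and 35 (0.217%) and 26 (0.161%) under all 5 scalings; with the deposited scaling 113 were higher and 30 lower. Against the Regnase-1 knockout 23 were higher (0.143%) and 162 lower (1%), 1.15% in all, and 10 (0.062%) and 29 (0.18%) under all 5 scalings; with the deposited scaling 59 were higher and 31 lower. Leaving out single libraries moved the first total of 95 to between 38 and 195 and the second of 185 to between 81 and 249. Tmcc3 was higher against WT, the double knockout and the Regnase-1 knockout (2.50, 2.05 and 1.80) and Tnfsf14 lower (-4.05, -1.52 and -2.50), the Tnfsf14 difference from the double knockout being lost under 10 of 27 alternatives. Bcat1, a branched-chain amino acid transaminase, counted 255, 223, 278 and 468 at 0 h and 2413, 1738, 2064 and 1693 at 4 h (2.73 ± 0.19) where the other 3 genotypes changed by 4.29, 4.24 and 4.24, and its differences were -1.56, -1.51 and -1.51. Otud3, a deubiquitinase, fell in the triple knockout from 185, 111, 124 and 157 to 50.1, 74.9, 64.4 and 95.2 (-1.02 ± 0.21) and changed by 0.97, 0.94 and 0.88 in the others (-1.99, -1.96 and -1.90). Entpd1 fell less than in the Roquin double knockout (1.75 ± 0.32, adjusted p = 0.0018), and Dock4, a guanine exchange factor, rose by 0.89 ± 0.21 where the Regnase-1 knockout had -0.66 (1.55 ± 0.29, adjusted p = 0.0018). Of the 25 known targets 1 was lower than in the Regnase-1 knockout.

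The change at 4 h also held the remainder of earlier waves. Against the same 0 h libraries 2119 genes rose (13.1%) and 1493 fell (9.25%) at 1 h, and 3942 rose (24.4%) and 3691 fell (22.9%) at 2 h; with the deposited scaling these were 1532 and 2904 at 1 h, and with CPM 2866 and 5165 at 2 h. From 2 to 4 h 1905 rose (11.8%) and 2074 fell (12.9%), of which 1316 (8.15%) and 1337 (8.28%) under all 5 scalings; with CPM scaling the split was 3465 and 1337. Of 21 immediate early factors 19 rose by 1 h, 20 by 2 h and 9 by 4 h, and 17 fell from 2 to 4 h with none risen. Egr3, an early factor of the T cell receptor response, had means of 2.67, 1733, 1154 and 36.6 normalized reads at 0, 1, 2 and 4 h (-5.0 log2 from 2 to 4 h), and Fosb, an AP-1 subunit, of 13.9, 1468, 118 and 8.01 (-3.65). The net change of Fosb did not pass (-0.57), whereas the nuclear receptor Nr4a3 was still high, at 3132 ± 1115 against 90.6 ± 24 (5.07 ± 0.25), after 20457 ± 1581 at 1 h and 16631 ± 3275 at 2 h.

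Of 24 cytokines 7 fell from 2 to 4 h and none rose. Lif, a cytokine of the IL-6 family, had means of 278, 3178, 2385 and 297, and its net change did not pass (0.12). Csf2 fell from 981 ± 606 at 2 h to 276 ± 130 at 4 h (-1.76, adjusted p = 0.021), and Il2 stood at 2551, 5647 and 3031 at 1, 2 and 4 h. Of the NF-κB list 15 of 20 fell from 2 to 4 h and none rose, Nfkbid among them at 10103 and 4537, and of the known targets 16 of 25 fell and none rose. Malt1 stood at 5123 at 2 h and at 779 at 4 h. Replication genes went the other way, with 13 of 28 fallen at 2 h and 13 risen from 2 to 4 h. Late risers from 2 to 4 h included P2ry1 (8.93 and 161 normalized reads; 3.99), Alpl, alkaline phosphatase (19 ± 2.92 and 109 ± 10.1; 2.47 ± 0.59), and Sox4, a transcription factor (37.5 ± 23.1 and 137 ± 48.7; 1.96 ± 0.49).

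**Figure D5:**
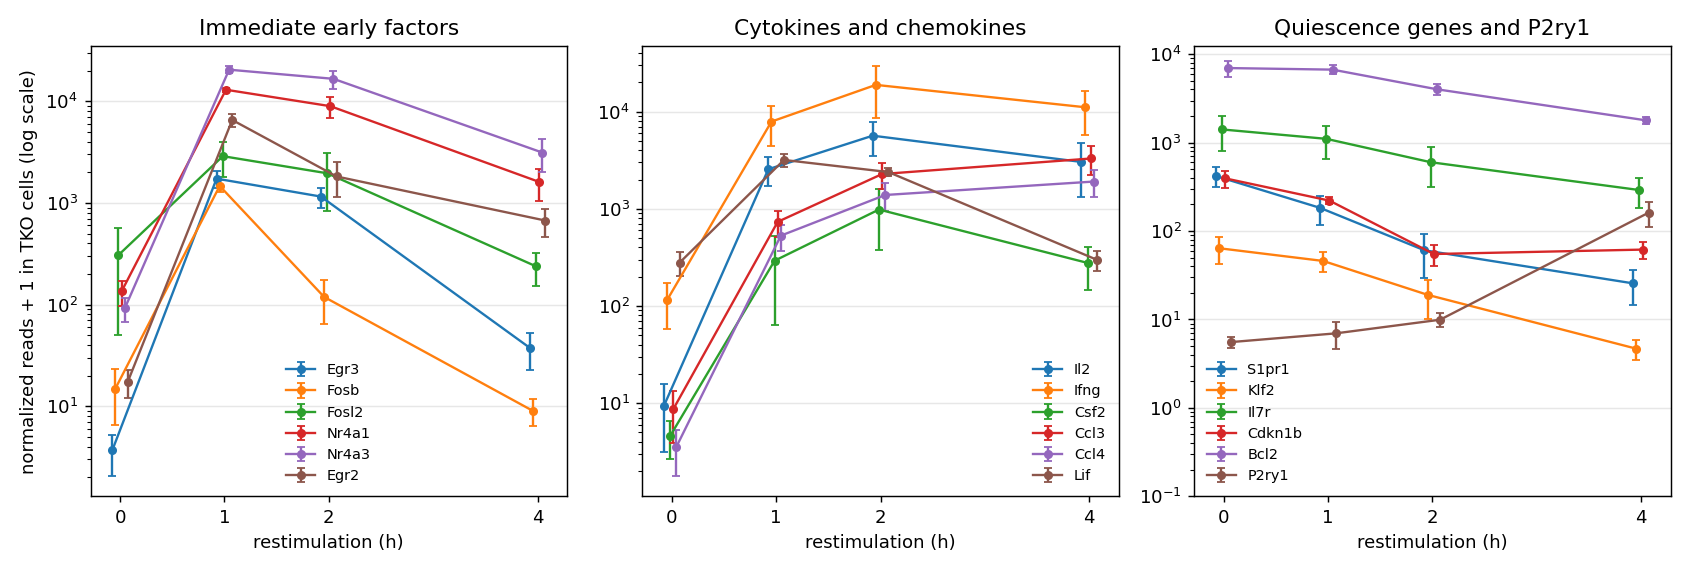
Mean normalized reads + 1 ± SD (n = 4) at 0, 1, 2 and 4 h in the triple knockout on a log axis, for early factors (left), cytokines and chemokines (middle) and genes of resting cells with P2ry1 (right). Before adding 1, Egr3 and Fosb go from 1733 and 1468 at 1 h to 36.6 and 8.01 at 4 h, Ccl4 is at 1905 at 4 h, and P2ry1 is at 8.93 at 2 h and 161 at 4 h.

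A further 4 genes with large rises had 0 to 3 reads at 0 h and are given by their reads rather than by the fitted change. Crabp2, a retinoic acid binding protein, had 1 read over the 4 libraries at 0 h and 2497 at 4 h, a ratio of 2275 in CPM (95% exact interval 408 to 89895). Inhba, a subunit of activin, had 0 reads and 942, at least 286-fold higher against a floor of 3 reads over the group. Olr1, a scavenger receptor, had 3 and 1005 (ratio 305, 104 to 1483), and Idi2, another isopentenyl diphosphate isomerase, 3 and 929 (282, 96.2 to 1371). These intervals cover counting error only.

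Among the 16140 genes tested here, the authors' deposited table calls 6479 between these 2 groups, 3279 higher and 3200 lower at 4 h. Of these, 6406 (98.9%) were also called here in the same direction, and they make up 78.8% of the calls made here. The sign of the authors' log2 fold changes was set by their correlation with the changes found here, so the shared direction as a whole was not tested.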

How the data were processed

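RNA of 64 libraries was sequenced, after Trizol extraction and library preparation with the NuGEN universal kit, per the labels' protocols. The deposited table gives, per the file header, a comma list of 4 normalized counts for each gene and group over 23134 genes; the build is GRCm38, per the submitters' processing notes, while no aligner, counter, annotation or strand setting is given in the sources used here. The lists carry no replicate numbers. Each library's values were whole multiples of what 1 read is worth (100% within 0.1 read), so whole reads were recovered and rescaled by trimmed means of M values (trims of 30% and 5%; factors 0.772 to 1.24) to the median depth. The deposited unit was therefore other than raw counts, and the test was limma 3.58.1 (R 4.3.3) on log2(value + 1) for all 16 groups at once, with 48 residual degrees of freedom and a median residual SD of 0.328. Genes needed 10 reads at median depth (1.3 CPM) in at least 4 libraries and a sum of at least 15. Adding 1 read understates the fold change of low genes. P-values were adjusted by Benjamini and Hochberg over all 16140 tested genes. The authors' own log2 fold changes and p-values (FDR) in the deposited table were used for 1 comparison of calls.

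The difference between 2 genotypes in the change from 0 to 4 h was a contrast of the same fit. Targeted genes were tested with an exact two-sided permutation test over all 70 arrangements. The exact intervals for counting error were binomial intervals from scipy 1.17.1. A list is described by its counts and its median beside those of all genes. The 53 lists (45 of programmes, 8 of cell type markers) and the groups compared were chosen with earlier results of these data known. Genes named were the 3 targeted genes and the 12 largest called rises and falls from 0 to 4 h. These rises and falls were called under all 5 scalings, with separate groups. They needed a mean of at least 100 normalized reads in the higher group and more than 3 reads in the lower. Like conditions chose the 8 and 8 largest differences from WT and the 4 and 4 from each other knockout. The 6 and 6 largest changes from 2 to 4 h were chosen likewise. Up to 3 genes with 0 to 3 reads at 0 h were named by their level at 4 h. Idi2, given beside them, was chosen for its rise from 2 to 4 h. In each list up to 4 called members in its main direction and 2 in the other were named. Other list members were named after their values were seen. Some genes that met these conditions are not reported here. Coordinates come from GENCODE M21 on GRCm38 (754 of 757 gene IDs matched), and 95 of these genes overlap an opposite-strand gene with more than 10% as many reads. Promoters are RefSeq GRCm38.p6. The 8 libraries differed from each other by more than counting noise (chi-square over degrees of freedom 8.28 to 51.51 within groups), so none was counted as a copy. Alternatives were 4 other scalings, 2 filters, voom on whole reads, a fit of only the groups compared, each library left out, and both outlying libraries left out. The procedure was tested on simulated data.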

Additional observations from a re-analysis of the deposited data

Results flagged for a closer look

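In 13 of 128 groups of 4 triple-knockout libraries (64 named genes at 0 and 4 h, 10.2%) 1 library lay far from the other 3. The rule flags about 1 in 20 where values are normally distributed. Here it was used on reads that were not logged, some of them near 0, as for Crabp2 and Mpzl2 at 0 h. Whether the share exceeds chance therefore cannot be told. At 0 h library 4 was the far one for Lad1 (48.9 normalized reads, the others 4.88 to 9.43), Csf2 (6.52, the others 2.44 to 2.89), S1pr1 (263, the others 459 to 480), Foxp3 (159, the others 33.7 to 43.9), Ptger3 (35.9, the others 9.77 to 11.5), Fcrl1 (238, the others 89.1 to 103) and Mpzl2 (1.09, the others 9.43 to 11). At 0 h library 2 was the far one for Crabp2 (1.22, the others 0) and Epsti1 (1017, the others 512 to 596). At 4 h library 1 was the far one for Lad1 (2004, the others 955 to 1083) and Socs3 (10.9, the others 76.7 to 85.5), and library 3 for Inhba (405, the others 124 to 170) and Rgs16 (1164, the others 703 to 748). The deviations of library 4 at 0 h and library 1 at 4 h from their group means correlated at 0.58 across genes, which are not independent replicates. Library 2 at 0 h correlated best with library 3 at 4 h (0.45), library 3 with library 2 (0.42) and library 1 with library 3 (0.20) and library 4 (0.18). A shared source was not tested.

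The change from 0 to 4 h differed from that in WT, by the interaction in limma, for P2ry1 (3.99, adjusted p = 7.2e-07), Calcrl (2.82, adjusted p = 0.00024), Aqp9 (2.51, adjusted p = 0.00038), Id3 (2.51, adjusted p = 0.00017), Tmcc3 (2.50, adjusted p = 2.7e-07), Foxp3 (2.45, adjusted p = 0.019), Ptger3 (2.31, adjusted p = 0.00048) and Acpp (2.30, adjusted p = 9.8e-05), all higher in the triple knockout. Foxp3 lost the call under 5 of 27 alternatives, and an opposite-strand gene there holds 162% as many reads. The change was lower for Pdzk1ip1 (-4.46, adjusted p = 1.3e-07), Zbtb32 (-4.09, adjusted p = 0.00013), Tnfsf14 (-4.05, adjusted p = 2e-11), Cd83 (-4.04, adjusted p = 0.00074), Fcrl1 (-3.45, adjusted p = 0.00034), Mpzl2 (-3.35, adjusted p = 0.0073), Pou2f2 (-3.35, adjusted p = 7.9e-13), Csf2 (-3.16, adjusted p = 0.011) and Rc3h1 (-0.81, adjusted p = 0.0001). Cd83, Mpzl2 and Csf2 were not called with voom.

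Against the Roquin double knockout P2ry1 (2.17), Acpp (2.08), Tmcc3 (2.05) and Entpd1 (1.75) were higher and Otud3 (-1.96), Tex15 (-1.54), Tnfsf14 (-1.52) and Bcat1 (-1.51) lower. P2ry1, Tnfsf14, Tex15 and Acpp lost the call under 15, 10, 6 and 1 of 27 alternatives. Against the Regnase-1 knockout Tmcc3 (1.80), Dock4 (1.55), Cmah (1.14) and Epsti1 (0.99) were higher and Rgs16 (-2.71), Fam83g (-2.57), Tnfsf14 (-2.50) and Serpinb6b (-2.06) lower, with Cmah, Epsti1, Fam83g and Rgs16 lost under 9, 9, 4 and 1 alternatives.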

How the results depend on the processing

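The 27 named changes from 0 to 4 h kept their call and direction in all 513 alternative values. The 12 from 2 to 4 h did so in all 228. The same held for 12 of 16 differences from WT and 4 of 8 from each other knockout. Genes named for the largest changes or differences had been chosen among those called under every scaling. Their agreement under the other scalings was therefore set by the choice and is no test. Separate groups were also required for the largest rises and falls, which favours keeping a call when a library is left out. Genes higher against WT (771) numbered 253 with the deposited scaling, 475 with upper-quartile and 480 with CPM, and genes lower (300) numbered 1196 and 521 with deposited and upper-quartile. Calls against the double knockout (95) were 143 with the deposited scaling, 181 with a filter of 50 reads, 23 with only the groups compared and 59 without both outlying libraries, an alternative chosen after seeing the data; against the Regnase-1 knockout (185) they were 90 with deposited, 69 with upper-quartile, 51 with CPM, 76 with no filter, 66 with only the groups compared and 96 without both. With CPM 3465 genes rose and 1337 fell from 2 to 4 h (1905 and 2074). Lists with more members fallen than risen (16) were 25 with the deposited scaling. The targeted genes turned sign within the spread: Rc3h1 from 0.13 to -0.09 (deposited) and -0.01 (upper-quartile), Rc3h2 from 0.04 to -0.18, -0.04, -0.11 and -0.02, and Zc3h12a from 0.01 to -0.20, -0.06, -0.13 and -0.04 (deposited, median-of-ratios, upper-quartile, CPM). Leaving out each library gave 4142 to 4353 risen and 3373 to 3783 fallen genes, 535 to 865 higher and 227 to 335 lower against WT, 38 to 195 against the double knockout, 81 to 249 against the Regnase-1 knockout, and 1360 to 1828 risen and 1612 to 2064 fallen from 2 to 4 h. The double-knockout count moved past 1.5 times without triple-knockout library 1 (53), 2 (195) or 4 (56) at 0 h, 2 (54) or 4 (50) at 4 h, double-knockout library 1 at 0 h (42) or 4 at 4 h (38), and the Regnase-1 count without triple-knockout library 1 at 0 h (95), 2 (100) or 4 (93) at 4 h, and Regnase-1 library 1 at 0 h (100) or 4 h (81). The cause was not tested. No paired analysis was possible because the deposited lists carry no replicate numbers; the correlations between libraries of the 2 times, given above, were not used to pair them. The planned edgeR and DESeq2 fits were not run; voom on the recovered whole reads was. Genes under 10 reads at median depth were not tested.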

Other observations

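Signalling genes upstream of the early response went down in the triple knockout. Of 21 T cell receptor signalling genes 11 fell and 5 rose (11 and 3 under all 5 scalings; 23.1% of all genes fell), and of 15 NFAT and calcium genes 9 fell and 4 rose, all 13 of them under all 5 scalings. Nfatc2, a resting-cell NFAT, fell by 1.41 on the log2 scale, while Nfatc1, its inducible relative, counted 1025, 1088, 903 and 1339 normalized reads at 0 h and 1651, 1607, 2280 and 1766 at 4 h (0.75 ± 0.15, adjusted p = 2.2e-05). Orai1, the pore of the calcium channel, rose by 2.39 and Orai2 fell by 0.97 on the log2 scale. Of the MAP kinase phosphatases and Sprouty genes 7 of 12 rose and 2 fell (5 and 2 under all 5 scalings), led by Spry1, at 7.72, 15.9, 9.62 and 10.9 before and 630, 255, 508 and 225 after (4.98 ± 0.43, adjusted p = 2.2e-14).

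The proteasome list rose in 16 of 30 genes and fell in 2 (11 and 2 under all 5 scalings). The 2 that fell were Psmb8 and Psmb9, interferon-inducible subunits of the immunoproteasome. Psmb8 counted 759, 704, 727 and 1033 at 0 h and 447, 381, 273 and 345 at 4 h (-1.16 ± 0.19, adjusted p = 9.8e-07), and Psmb9 went from 224 ± 9.62 to 104 ± 32.3 (-1.16 ± 0.25, adjusted p = 8.1e-05). At Psmb9 an opposite-strand gene, Tap1, holds 438% as many reads. Genes of the Th1 list were divided, with 6 of 15 risen and 6 fallen, where 27.2% of all genes rose and 23.1% fell. Tbx21, the master factor of Th1 cells, rose from 166 ± 51.9 to 458 ± 151 (1.45 ± 0.29, adjusted p = 3.4e-05) after 1527 ± 318 at 2 h. Bmf, a pro-apoptotic BCL2 protein, fell from 300 ± 29 to 33.6 ± 4.63 (-3.13 ± 0.44, adjusted p = 2.5e-08). Pim2, a survival kinase, fell from 4967 ± 230 to 1336 ± 346 (-1.93 ± 0.21, adjusted p = 1.1e-11), by more than in WT, where it went from 622 ± 169 to 340 ± 68.2 (difference -1.08 ± 0.29, adjusted p = 0.014).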
